A study of Mus musculus with 12 samples.

Results

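The Ugt1a genes form a cluster on mouse chromosome 1 that encodes UDP-glucuronosyltransferases, enzymes of the endoplasmic reticulum that transfer glucuronic acid from UDP-glucuronic acid to bilirubin, steroids, phenols and drugs, so that the conjugates dissolve in water and leave the body in bile or urine. Each member has its own promoter and its own first exon, which encodes the part of the enzyme that binds the substrate, and every first exon is spliced to the same set of later exons, which encode the part that binds UDP-glucuronic acid. Ugt1a1 makes the enzyme that conjugates bilirubin, and the family is known mainly from liver, gut and kidney. The members were all genes of the count table with a symbol that begins with Ugt1a, which were 9 of 57490 genes. The cluster was singled out because Ugt1a2 was among the genes with the largest rise in Model over Ctrl kidneys. Measured values of that comparison therefore chose it, so the Ugt1a values for Model against Ctrl are given as a description with no test, and so is Ugt1a2 in every comparison.

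Kidney RNA of 12 male mice was sequenced from polyadenylated transcripts, with 4 mice in each of 3 groups, and the description of the series calls the tissue renal cortex. The Model mice were db/db mice of the strain BKS.Cg-Dock7m +/+ Leprdb/JNju, which carry the leptin receptor mutation on both copies, become obese and diabetic, and entered the study on the basis of their blood glucose. The Ctrl mice were heterozygous db/+ animals of the same age and BKS background, named db/m in the titles and wild-type in the genotype labels. The YHY mice were db/db mice given a water extract of the Yiqi Huoxue Yangyin decoction, a mixture of medicinal plants, at 6.24 g/mL, while Ctrl and Model mice received water. The sources used here do not state to which of the doses in the study the sequenced YHY mice belonged. All mice arrived at 8 weeks of age, were gavaged once a day for 4 weeks with 50 µL for each 10 g that they weighed, and are labelled as 13 weeks old. The deposited counts of reads summed to between 24415658 and 33276634 per mouse. Transcripts of the mitochondrial genome took 19.6% ± 2.1 (SD, n = 4) of the counts of Ctrl mice, 52.2% ± 7.68 of Model and 56.8% ± 5.21 of YHY mice, so the nuclear genes of the db/db mice shared a smaller part of each library. Levels are therefore given in counts per 1000000 (CPM) after scaling by the trimmed mean of M values (TMM).

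The structure of the cluster sets what a count of a single member can mean. The deposited table places the 9 genes on the plus strand of chromosome 1 between 87983110 and 88147724 (GRCm39 in the submitters' processing notes), a span of 165 kb. In the GENCODE M21 annotation (GRCm38), the exonic length of each of the 9 genes equalled the deposited gene length. All 9 models there contained the same 4 later exons of 132, 88, 220 and 871 bases, 1311 bases together. Only the remaining bases can tell the members apart. The end of the first exon lay 159 kb before the shared second exon in Ugt1a10, 119 kb in Ugt1a7c, 75.7 kb in Ugt1a6a, 13.5 kb in Ugt1a2 and 2.17 kb in Ugt1a1.

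The splice junctions of 5 members show how little separates some of them. Each line gives the last 40 bases of the first exon in lower case and the opening 40 bases of the shared second exon in capitals, read from the M21 transcripts on the plus strand. The first exons lie at chr1:88055411-88056336 (Ugt1a10), chr1:88095064-88095978 (Ugt1a7c), chr1:88138378-88139331 (Ugt1a6a), chr1:88166012-88166903 (Ugt1a5) and chr1:88200601-88201500 (Ugt1a2), and the second exon lies at chr1:88215044-88215175, all in GRCm38.
Ugt1a10: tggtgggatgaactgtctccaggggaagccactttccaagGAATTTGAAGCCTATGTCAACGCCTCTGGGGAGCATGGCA
Ugt1a7c: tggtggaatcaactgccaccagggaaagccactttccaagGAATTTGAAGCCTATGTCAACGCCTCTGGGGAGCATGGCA
Ugt1a6a: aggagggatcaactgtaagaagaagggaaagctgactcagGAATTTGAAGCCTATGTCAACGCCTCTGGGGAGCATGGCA
Ugt1a5: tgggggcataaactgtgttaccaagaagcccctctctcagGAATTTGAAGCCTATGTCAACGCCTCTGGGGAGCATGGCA
Ugt1a2: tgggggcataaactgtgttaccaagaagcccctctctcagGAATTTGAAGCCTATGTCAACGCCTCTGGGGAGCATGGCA
The capitals were the same in all 9 genes. The lower-case ends took 8 distinct forms, since Ugt1a5 and Ugt1a2 were identical in 40 of 40 bases, while Ugt1a2 matched Ugt1a10 in 26 and Ugt1a7c in 23. Over the whole first exon, 67 of the 851 stretches of 50 bases in Ugt1a2 (7.87%) also occurred in another member, which was Ugt1a5. That share was 6.27% for Ugt1a10, 1.39% for Ugt1a7c, 47.4% for Ugt1a6a and 48.3% for its near copy Ugt1a6b. A read that covers only such a stretch fits more than 1 member, and so does a read that lies within the shared exons.

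**Figure D1:**
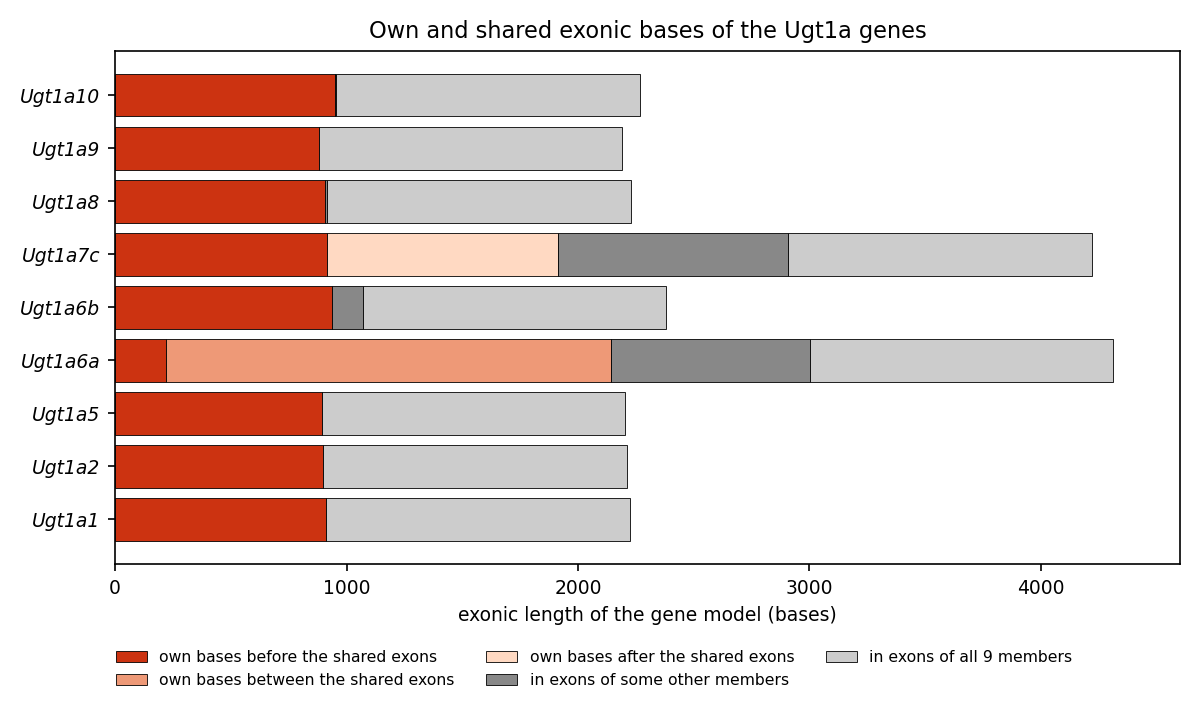
Each bar is the exonic length of a Ugt1a gene model in bases, and its colours divide it into bases that no other gene on that strand covers, by their place before, between or after the shared exons, bases in the exons of some other members, and the 1311 bases in the exons of all 9 members. Ugt1a7c and Ugt1a6a, the longest models, have own bases beyond their first exons.

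The models differ in where their own bases lie, which the plot of own and shared exonic bases shows. Ugt1a2 had 900 own bases and Ugt1a10 had 949, all of them before the shared exons. Ugt1a7c had 1915, of which 917 lay before the shared exons and 998 after them, past the point where the other models end. Ugt1a6a had 2142, of which 222 lay before the shared exons and 1920 between them. A further 859 bases of Ugt1a6a were also part of the Ugt1a7c model, and these are the last 859 of the 954 bases of the first exon of Ugt1a6a, so most of that exon cannot tell these 2 models apart. A read in the 998 bases past the shared exons would be listed under Ugt1a7c, and a read between the shared exons under Ugt1a6a, whichever first exon the transcript carried. Counting genes on either strand, 385 of the 913 own bases of Ugt1a1 and 809 of the 949 of Ugt1a10 were free of another gene, while the other members kept all of theirs, and whether reads were counted by strand is not given in the sources used here. The counts give no split by position, so the part of such reads was not measured.

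Counts of the 9 members were low and uneven. Ugt1a7c, Ugt1a10, Ugt1a2 and Ugt1a6a passed the filter on low counts, and 5 members did not. Ugt1a1 had 30 counts in all 12 mice together and at most 8 in any mouse. Ugt1a6b had 28 counts and at most 7, Ugt1a5 had 16 and at most 8, and Ugt1a9 had 7 and at most 3. Ugt1a8 had 0 counts in each of the 12 mice, although it shares 1311 bases with the other members, so reads in the shared exons had not been counted on every member. The counting error alone would let a level of up to 0.0683 to 0.166 CPM, 3 counts in the deepest to the shallowest scaled library, pass as 0.

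**Figure D2:**
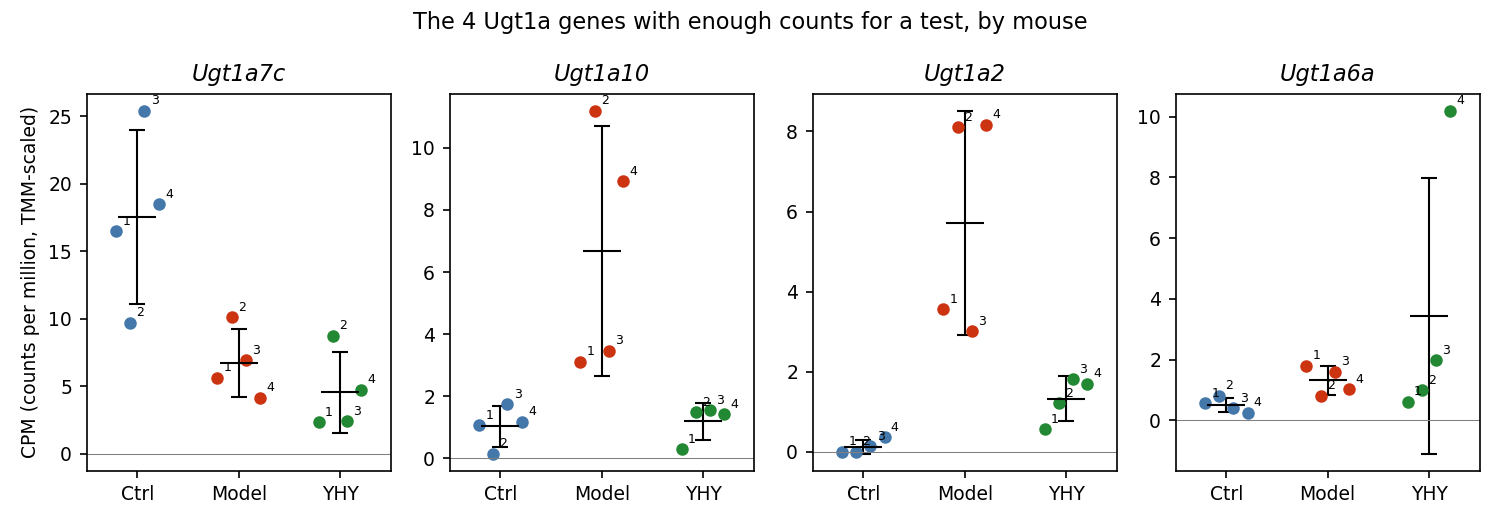
Each circle is a mouse, the vertical axis is CPM after TMM scaling on a scale of its own for each gene, and the bars give the mean and SD of 4 mice. Ugt1a7c was highest in Ctrl, Ugt1a10 and Ugt1a2 were highest in Model, and a single YHY mouse stands out for Ugt1a6a at 10.2 CPM.

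Ugt1a7c, a member that conjugates phenols and bulky planar compounds, had the largest number of counts. Its values were 16.5, 9.7, 25.4 and 18.5 CPM for Ctrl, 5.63, 10.1, 6.9 and 4.15 for Model, and 2.33, 8.73, 2.38 and 4.73 for YHY. Ctrl 2, the lowest control, lay just below Model 2, the highest Model mouse, and apart from that pair every Ctrl mouse lay above every Model mouse. YHY 2 and YHY 4 lay inside the Model range, and YHY 1 and YHY 3 lay below it.

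Ugt1a10, a member known in human tissue from the gut, was at 1.06, 0.156, 1.74 and 1.18 CPM in the Ctrl mice, 3.12, 11.2, 3.47 and 8.94 in the Model mice and 0.305, 1.49, 1.56 and 1.43 in the YHY mice. Every Model mouse exceeded every Ctrl and every YHY mouse, and Model 2 and Model 4 stood well above the other Model mice. Ctrl 2 and YHY 1 were the lowest of their groups.

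Ugt1a2, whose first exon belongs to the same subgroup as that of the bilirubin enzyme, was at 0, 0, 0.147 and 0.364 CPM in Ctrl mice, 3.57, 8.1, 3.01 and 8.17 in Model mice and 0.572, 1.22, 1.82 and 1.7 in YHY mice. The Ctrl values rest on 22 counts, 6 in Ctrl 3 and 16 in Ctrl 4, whereas Model mice had 66 to 191 counts. The 3 groups did not overlap, with Ctrl lowest, YHY between and Model highest. Model 2 and Model 4 were again the highest Model mice.

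Ugt1a6a, a member that conjugates small planar phenols, was at 0.552, 0.811, 0.392 and 0.25 CPM for Ctrl, 1.8, 0.81, 1.6 and 1.03 for Model, and 0.611, 0.995, 1.97 and 10.2 for YHY. YHY 4 was far above the other 11 mice, and the groups overlapped. The 8 counts that made the maximum of Ugt1a1 and the 8 that made the maximum of Ugt1a5 also came from YHY 4, which was the single YHY mouse with a count of Ugt1a5.

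Levels of different members were compared per length, as FPKM, which is CPM on the TMM scale divided by the deposited gene length in kb. In Ctrl the order by mean FPKM was Ugt1a7c at 4.16 ± 1.53 (SD, n = 4), Ugt1a10 at 0.456 ± 0.289, Ugt1a6a at 0.116 ± 0.0558 and Ugt1a2 at 0.0578 ± 0.0779. Ugt1a7c lay above the others in every mouse, while the ranges of the neighbours Ugt1a10 and Ugt1a6a, and of Ugt1a6a and Ugt1a2, overlapped. In Model the order was Ugt1a10 at 2.95 ± 1.78, Ugt1a2 at 2.58 ± 1.27, Ugt1a7c at 1.59 ± 0.605 and Ugt1a6a at 0.304 ± 0.109. The leading 3 overlapped in range, so their order is not settled beyond the spread between mice, and Ugt1a6a lay below them in every mouse. In YHY the order was Ugt1a7c at 1.08 ± 0.713, Ugt1a6a at 0.796 ± 1.05, Ugt1a2 at 0.601 ± 0.257 and Ugt1a10 at 0.529 ± 0.264, and each overlapped its neighbour. The place of Ugt1a6a rests on YHY 4, which stood at 2.35 FPKM, and without that mouse its mean was 0.277 ± 0.163 (n = 3), the lowest of the 4. Members that did not pass the filter had group means of at most 0.0839 FPKM.

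The deposited lengths include the shared exons, so levels were also expressed as CPM per kb of own bases, a scale added after the data had been seen. On that scale Ugt1a7c stood at 9.16 ± 3.38 for Ctrl, 3.5 ± 1.33 for Model and 2.37 ± 1.57 for YHY. Ugt1a10 stood at 1.09 ± 0.691, 7.05 ± 4.25 and 1.26 ± 0.63 in the same groups. Ugt1a2 stood at 0.142 ± 0.191, 6.35 ± 3.11 and 1.48 ± 0.632. The order within each group was the same as by FPKM, and in Model the leading 3 still overlapped. The members with most counts did not sit side by side, as the plot of level against position shows. Of the 3 that overlapped in Model, Ugt1a10 has the first exon farthest from the shared exons and Ugt1a2 the second nearest, and Ugt1a5 and Ugt1a1, which were near 0, lie on either side of Ugt1a2.

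**Figure D3:**
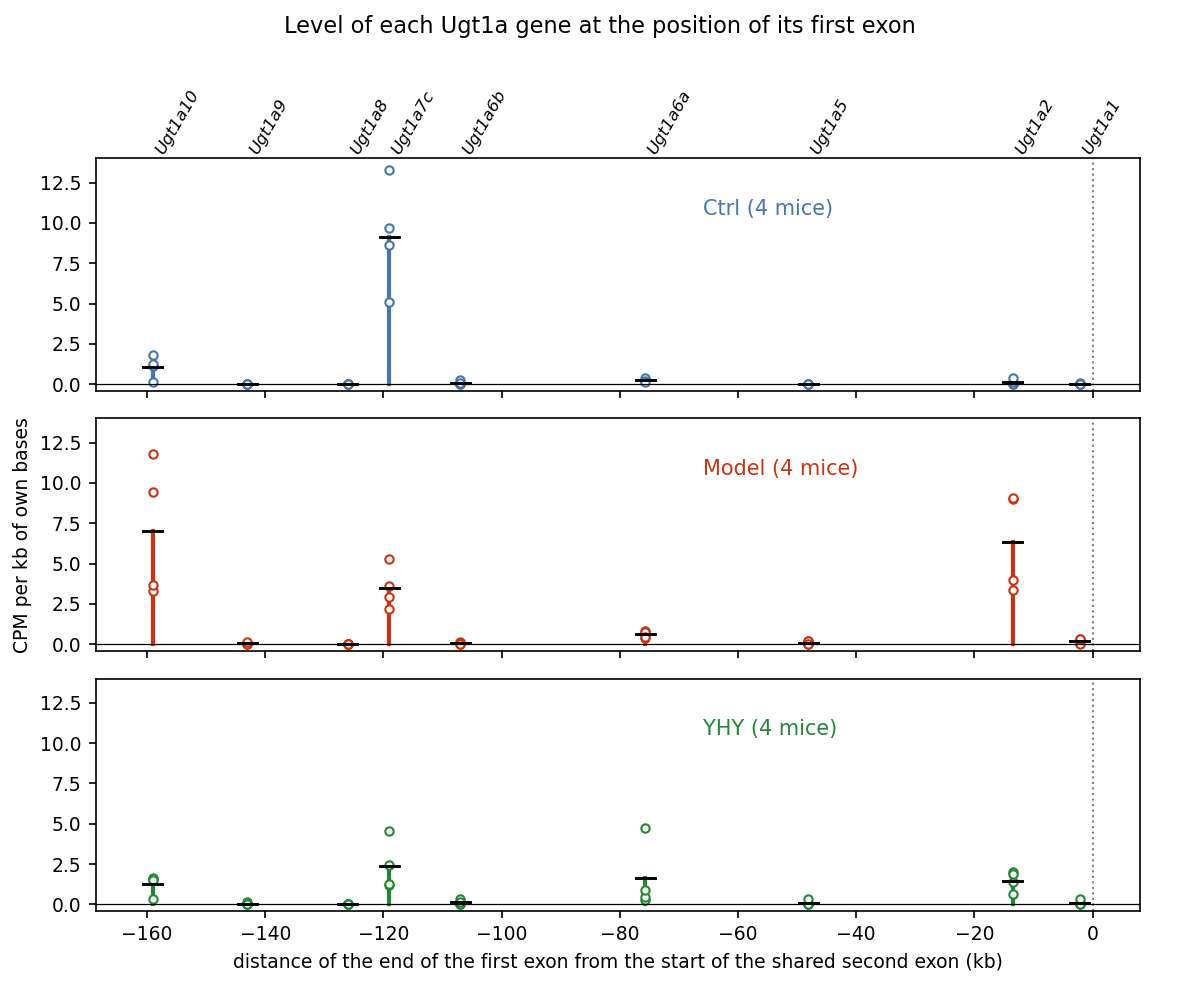
The horizontal axis gives the distance in kb of the end of each first exon from the shared second exon, and the vertical axis the level in CPM per kb of own bases, with a circle per mouse and a bar at the mean of 4 mice. Ctrl has 1 high position, Ugt1a7c 119 kb away, while in Model the means of Ugt1a10 at 159 kb and Ugt1a2 at 13.5 kb lie above it with ranges that overlap.

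Summed over the 9 members, the level was 19.3 ± 6.96 CPM (SD, n = 4) for Ctrl, 20.8 ± 7.67 for Model and 10.8 ± 6.46 for YHY, and all 3 ranges overlapped. The sum depended on the scale, since per kb of own bases it was 10.7 ± 4.01 in the Ctrl mice, 17.9 ± 7.77 in the Model mice and 7.07 ± 3.79 in the YHY mice. The make-up of the counts differed more than the sum. Ugt1a7c made up 91.1%, 89.1%, 91.5% and 90.7% of the counts of the cluster in the Ctrl mice, 38.9%, 32.9%, 45.5% and 18.3% in the Model mice, and 59.8%, 67.8%, 30.8% and 25.2% in the YHY mice. No Model or YHY mouse reached the lowest Ctrl share. The YHY mice overlapped the Model mice, and Model 4 was the lowest of all. Ugt1a10 made up 4.83% ± 2.28, 30.1% ± 9.14 and 11.8% ± 5.87 in Ctrl, Model and YHY. Ugt1a2 made up 0.578% ± 0.841, 26.7% ± 6.75 and 14.2% ± 6.75, and in Ctrl 0.176% without Ctrl 4. Ugt1a6a made up 3.28% ± 2.9, 7.53% ± 4.7 and 25.7% ± 20.2, and its share of 54% in YHY 4 lowers the shares of the other members there. Without Ctrl 2 its Ctrl share was 1.9%, and without YHY 4 its YHY share was 16.3%. These shares are of counts and not of transcripts, because the own bases of the members differ in length. For Ugt1a7c and Ugt1a6a they also lie partly after or between the shared exons, where a read does not show the first exon.

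**Figure D4:**
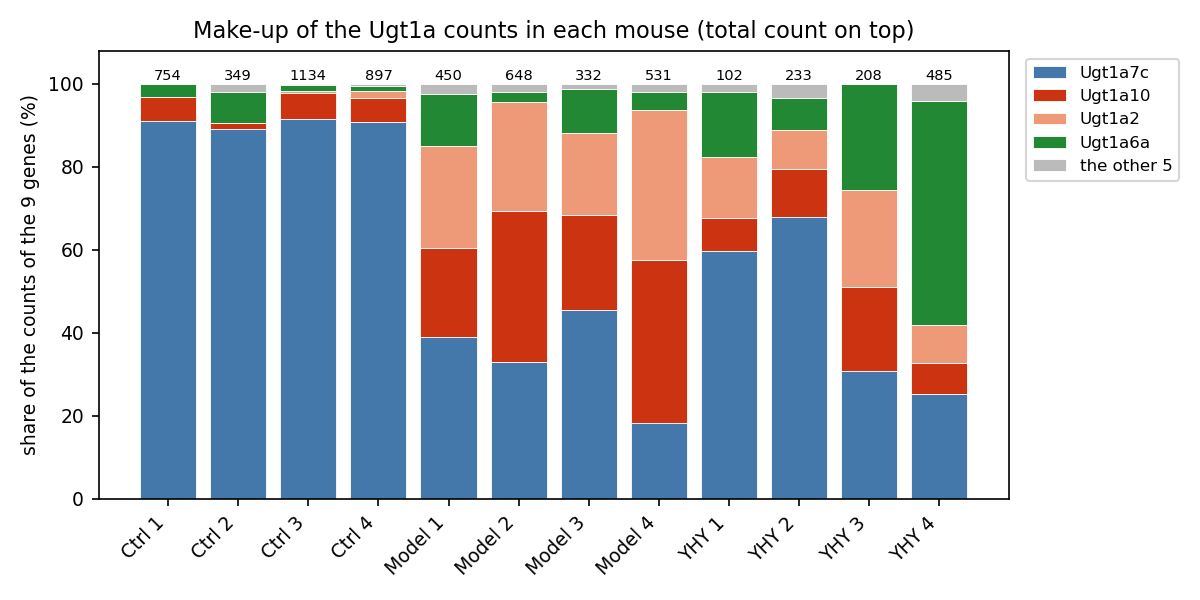
Each bar is a mouse and its segments are the share, in %, of the counts of the 9 Ugt1a genes that fell on each member, with the summed count of the mouse above the bar (102 in YHY 1 to 1134 in Ctrl 3). Ugt1a7c fills at least 89.1% of each Ctrl bar and at most 45.5% of each Model bar.

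Model was compared with Ctrl to describe the cluster in the diabetic kidney. On the log2 scale the fitted difference was 5.37 (SE 0.77) for Ugt1a2, 2.67 (SE 0.6) for Ugt1a10, 1.4 (SE 0.72) for Ugt1a6a and -1.39 (SE 0.39) for Ugt1a7c. The difference for Ugt1a2 was 6.62 without Ctrl 4, which held 16 of the 22 Ctrl counts, so its size is loosely set. Of the 4 members that passed the filter, Ugt1a2 and Ugt1a10 had groups that did not overlap, and so had 40.2% of all genes tested. Over the 17431 genes tested, 19.6% were called higher and 18.5% lower in Model at an adjusted P under 0.05, by edgeR's quasi-likelihood test with Benjamini-Hochberg adjustment, and the median log2 fold change of all genes was 0.04. With libraries scaled by their size alone, 21.4% of the calls were higher in Model, against 51.5%. Because the cluster was chosen on this contrast, nothing is read from these counts. In RNA of whole tissue, fewer cells of a type and less RNA per cell cannot be told apart.

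YHY was compared with Model to ask what the extract changed in db/db kidneys. Over all genes, 5.63% were called higher and 7.62% lower in YHY, the median log2 fold change was 0.02, and the groups of 16.1% did not overlap. The 982 higher calls became 419 to 1045 with a mouse left out, and 491 with library size alone. The 1329 lower calls became 727 to 1678 with a mouse left out, and 686 with library size alone. The Model mice of this comparison are those on which Ugt1a2 was chosen, so Ugt1a2 is given with no test here as well. Of the 3 remaining members that passed the filter, 0 were called higher, also by DESeq2 and at an unadjusted P under 0.05, and 1, Ugt1a10, was called lower. Ugt1a10 fell by 2.48 on the log2 scale (SE 0.61, adjusted P = 0.0156), a 5.58-fold lower level, with all 4 YHY mice below all 4 Model mice. Over the 12 mice its log2 CPM had a Pearson's r of 0.797 with that of Ugt1a2. The P for Ugt1a10 is therefore not independent of the choice of the cluster. Its call held in each of the 20 alternatives that gave a value, with an adjusted P of up to 0.0499 when Model 2 was left out. Ugt1a7c had a log2 fold change of -0.58 (SE 0.4, adjusted P = 0.37), and YHY 2 and YHY 4 lay within the Model range. For Ugt1a6a the log2 fold change was 1.39 (SE 0.69, adjusted P = 0.2), and -0.14 without YHY 4. The fitted difference of Ugt1a2, as a description, was -2.1 (SE 0.64), and between -2.31 and -1.84 in the 12 fits that left out a mouse.

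YHY was compared with Ctrl to see where the treated mice stood against lean mice. Over all genes, 26.1% were called higher and 24.2% lower in YHY, with a median log2 fold change of 0.1, and the groups of 44.6% did not overlap. With libraries scaled by their size alone, 28.4% of the calls were higher in YHY, against 51.9%. Of the 3 members tested, Ugt1a7c was called lower and Ugt1a6a higher. Ugt1a7c fell by 1.97 (SE 0.4, adjusted P = 0.000778), a 3.91-fold lower level, and all 4 YHY mice lay below all 4 Ctrl mice. Its adjusted P was at most 0.003 in every alternative. Ugt1a6a rose by 2.78 (SE 0.73, adjusted P = 0.00481), but without YHY 4 the value was 1.26 and the adjusted P 0.0723. Ugt1a10 differed by 0.19 (SE 0.6, adjusted P = 0.812), and all 4 YHY mice lay within the Ctrl range. Ugt1a2, given with no test since the Ctrl mice entered its choice, was higher in YHY by 3.27 (SE 0.75), or by 4.51 without Ctrl 4, and all 4 YHY mice lay above all 4 Ctrl mice.

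The members that were high in Model do not share a promoter, so the sequences before their starts are given for the ones that the results turn on. RefSeq promoters (GRCm38.p6) were matched for 8 of the 9 genes, and 250 bases before the RefSeq start were searched on both strands for GCGTG, the core of the element bound by the dioxin receptor, and for TGACNNNGC, the core of the antioxidant response element. The promoters of Ugt1a10 and Ugt1a2, the pair that was high in Model, are on the plus strand at chr1:88055161-88055410 and chr1:88200361-88200610, and that of Ugt1a5, whose first exon ends like that of Ugt1a2, is at chr1:88165762-88166011, with capitals at its match. RefSeq and M21 differ in some starts, so that the Ugt1a2 window reaches 10 bases into the first exon given above and the Ugt1a7c window ends 63 bases before it. The Ugt1a6a window ends 3569 bases before the exon given, since other transcripts of that gene start at an exon farther from the shared ones.
Ugt1a10: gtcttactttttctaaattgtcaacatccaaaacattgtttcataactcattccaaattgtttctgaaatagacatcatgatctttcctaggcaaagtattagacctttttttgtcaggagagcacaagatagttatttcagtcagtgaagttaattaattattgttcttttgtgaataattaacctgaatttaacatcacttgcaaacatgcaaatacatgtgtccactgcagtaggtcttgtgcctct
Ugt1a2: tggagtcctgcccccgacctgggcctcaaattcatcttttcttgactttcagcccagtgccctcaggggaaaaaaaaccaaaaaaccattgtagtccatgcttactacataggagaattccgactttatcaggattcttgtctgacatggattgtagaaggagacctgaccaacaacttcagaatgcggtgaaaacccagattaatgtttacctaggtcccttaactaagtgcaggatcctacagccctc
Ugt1a5: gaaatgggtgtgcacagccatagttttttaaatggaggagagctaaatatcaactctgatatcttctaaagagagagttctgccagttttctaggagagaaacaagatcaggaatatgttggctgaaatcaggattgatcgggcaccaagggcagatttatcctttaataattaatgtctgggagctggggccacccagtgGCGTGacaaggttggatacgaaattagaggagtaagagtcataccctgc
In Ugt1a5 the match to GCGTG lay 49 to 45 bases before the start. Ugt1a10, Ugt1a2 and Ugt1a7c held neither motif in this window. Across the cluster GCGTG was found in 2 of 8 promoters, those of Ugt1a8 and Ugt1a5, against 28.2% of 32851 mouse promoters of the same length, and TGACNNNGC in 0, against 10.2%. Ugt1a8 and Ugt1a5 had almost no counts, and a match is a run of letters whose use in these kidneys was not tested.

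Genes for the factors that are known to act on Ugt1a promoters were read from a list of 16, of which 14 were tested. In Model against Ctrl 3 were higher and 4 lower, with a median log2 fold change of -0.18, and the count of lower genes was 2 without Model 2, at most 5 with another mouse left out and 8 with library size alone. Of all genes tested, 19.6% were higher and 18.5% lower in Model, with a median of 0.04, so counts of this size are not a result about these factors, and the lists that follow stand beside the same shares. Nr1i2, which encodes the pregnane X receptor, rose by 1.83 (SE 0.37, adjusted P = 0.00122), from 2.03 ± 0.533 to 7.2 ± 1.62 CPM. Nr1h4, for the bile acid receptor, rose by 1.32 (SE 0.3, adjusted P = 0.00273), and Maf, for a basic leucine zipper factor, by 1.45 (SE 0.33, adjusted P = 0.00313). Between YHY and Model, 2 were higher and 2 lower in YHY, with a median of -0.17, and each count was 1 to 2 with a mouse left out, while the higher count was 0 with library size alone. Of all genes 5.63% were higher and 7.62% lower in YHY. Hnf4a, a factor of tubule and liver cells, had the highest mean FPKM in the list. It did not pass the test in Model against Ctrl (0.06, SE 0.21, adjusted P = 0.856). In YHY against Model it fell by 0.94 (SE 0.21, adjusted P = 0.009), with means of 433, 450 and 234 CPM in Ctrl, Model and YHY. Nfe2l2, which encodes the factor NRF2 of the antioxidant response, fell by 0.52 in Model (SE 0.17, adjusted P = 0.026), a call lost without Ctrl 4 at 0.0504 and without Model 2 at 0.076. It rose by 0.72 in YHY against Model (SE 0.17, adjusted P = 0.0136), and at 0.061 its adjusted P missed the threshold when libraries were scaled by their size alone.

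Targets that these factors are known for were counted list by list. Of 8 targets of the dioxin receptor, 6 were tested, and in Model against Ctrl 2 were higher (1 to 2 with a mouse left out, 0 with library size alone) and 0 lower, also 0 lower by DESeq2 and at an unadjusted P under 0.05. Gsta1, for a glutathione transferase, rose by 2.3 (SE 0.79, adjusted P = 0.0308) from 0.168 to 0.821 CPM, a call lost without Ctrl 1, Ctrl 3, Ctrl 4, Model 1 or Model 3. Cyp1b1, a cytochrome P450, rose by 0.98 (SE 0.18, adjusted P = 0.00065), with an adjusted P of 0.0558 when libraries were scaled by their size alone. Nqo1, a quinone reductase and the target with the highest mean FPKM, stood at 0.17 (SE 0.16, adjusted P = 0.418). Against Model, 0 of them were called in YHY, with 1 higher by DESeq2 and 1 at an unadjusted P under 0.05. Of 10 targets of the pregnane X and constitutive androstane receptors, 2 were tested, and 0 were called in either comparison, with 1 lower in Model by DESeq2 and 1 higher in YHY at an unadjusted P under 0.05. Of 21 NRF2 targets, 20 were tested, with 6 higher (3 with library size alone) and 7 lower in Model and a median of -0.28. Gsta2, for another glutathione transferase, rose by 3.85 (SE 0.47, adjusted P = 2.6e-05), and Akr1b3, for aldose reductase, fell by 3.01 (SE 0.83, adjusted P = 0.00942). Against Model, 0 of them were higher in YHY (1 by DESeq2, 3 at an unadjusted P under 0.05, 1 without YHY 2, 2 without YHY 4) and 2 were lower, namely Me1, the malic enzyme, by -1.56 (SE 0.19, adjusted P = 0.000322) and Srxn1, for sulfiredoxin, by -0.98 (SE 0.15, adjusted P = 0.00114).

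Glucuronidation also needs a supply of UDP-glucuronic acid. Of 8 genes for its making, use and transport and for the release of glucuronic acid, all tested, 1 was higher and 5 lower in Model, with a median of -0.51. With a mouse left out the lower count was 3 (without Model 2) to 5, and 0 were higher without Ctrl 1, Ctrl 3, Ctrl 4 or Model 1 and with library size alone. Pgm1, for the phosphoglucomutase that makes glucose 1-phosphate, fell by 1.05 (SE 0.18, adjusted P = 0.000303), and Uxs1, whose enzyme turns UDP-glucuronic acid into UDP-xylose, fell by 1.69 (SE 0.23, adjusted P = 6.27e-05). Gusb, for the lysosomal enzyme that takes glucuronic acid off again, fell by 0.89 (SE 0.25, adjusted P = 0.0107). Ugp2, for the enzyme that makes UDP-glucose, had the highest mean FPKM in the list. It fell by 0.65 (SE 0.19, adjusted P = 0.0133), a call lost without Model 2, at 0.0503. Of these genes, 0 were higher in YHY than in Model, also by DESeq2 and at an unadjusted P under 0.05, and 2 were lower, with a median of -0.37. Ugdh, for the dehydrogenase that makes UDP-glucuronic acid, fell by 0.78 (SE 0.14, adjusted P = 0.00327), from 91.6 ± 10.9 to 53.3 ± 7.1 CPM. Slc35d1, for the carrier that brings it into the endoplasmic reticulum, fell by 0.81 (SE 0.18, adjusted P = 0.00949), from 47.3 ± 3.07 to 27 ± 5.39 CPM. For both genes all 4 YHY mice lay below all 4 Model mice.

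UDP-glycosyltransferases outside the cluster were read from a list of 13, of which 8 were tested, with 1 higher (0 to 2 with a mouse left out) and 4 lower in Model and a median of -1.45. Ugt2b38, a glucuronosyltransferase of the steroid-conjugating family, had the highest mean FPKM in the list. It fell by 2.47 (SE 0.56, adjusted P = 0.00268), with means of 808 ± 278 CPM in Ctrl and 146 ± 66.8 in Model. Ugt3a2 and Ugt3a1, which encode enzymes that transfer other sugars, fell by 2.3 (SE 0.3, adjusted P = 4.66e-05) and by 2.28 (SE 0.27, adjusted P = 1.77e-05). Ugt2b34, a low member at 1.43 ± 1.37 CPM for Ctrl, 6.78 ± 4.28 for Model and 1.58 ± 1.18 for YHY, rose by 2.25 in Model (SE 0.71, adjusted P = 0.0207), a call lost in 3 of 20 alternatives, among them without Ctrl 1 at 0.0653 and without Model 1 at 0.0821, with an adjusted P of up to 0.0999. In YHY against Model 0 were higher, also by DESeq2 and at an unadjusted P under 0.05, and 4 were lower, with a median of -1.17. That count ran from 1, without Model 1 or Model 3, to 5 with a mouse left out, and the calls of Ugt2b37 and Ugt3a2 were lost in 13 and 7 of 21 alternatives. Ugt3a1 went from 12 ± 3.17 to 4.75 ± 1.73 CPM (adjusted P = 0.00549), with no overlap. Ugt2b38 fell by 2.1 (SE 0.55, adjusted P = 0.0215), a call lost without Model 1 at 0.0583 and without Model 3 at 0.0565.

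**Figure D5:**
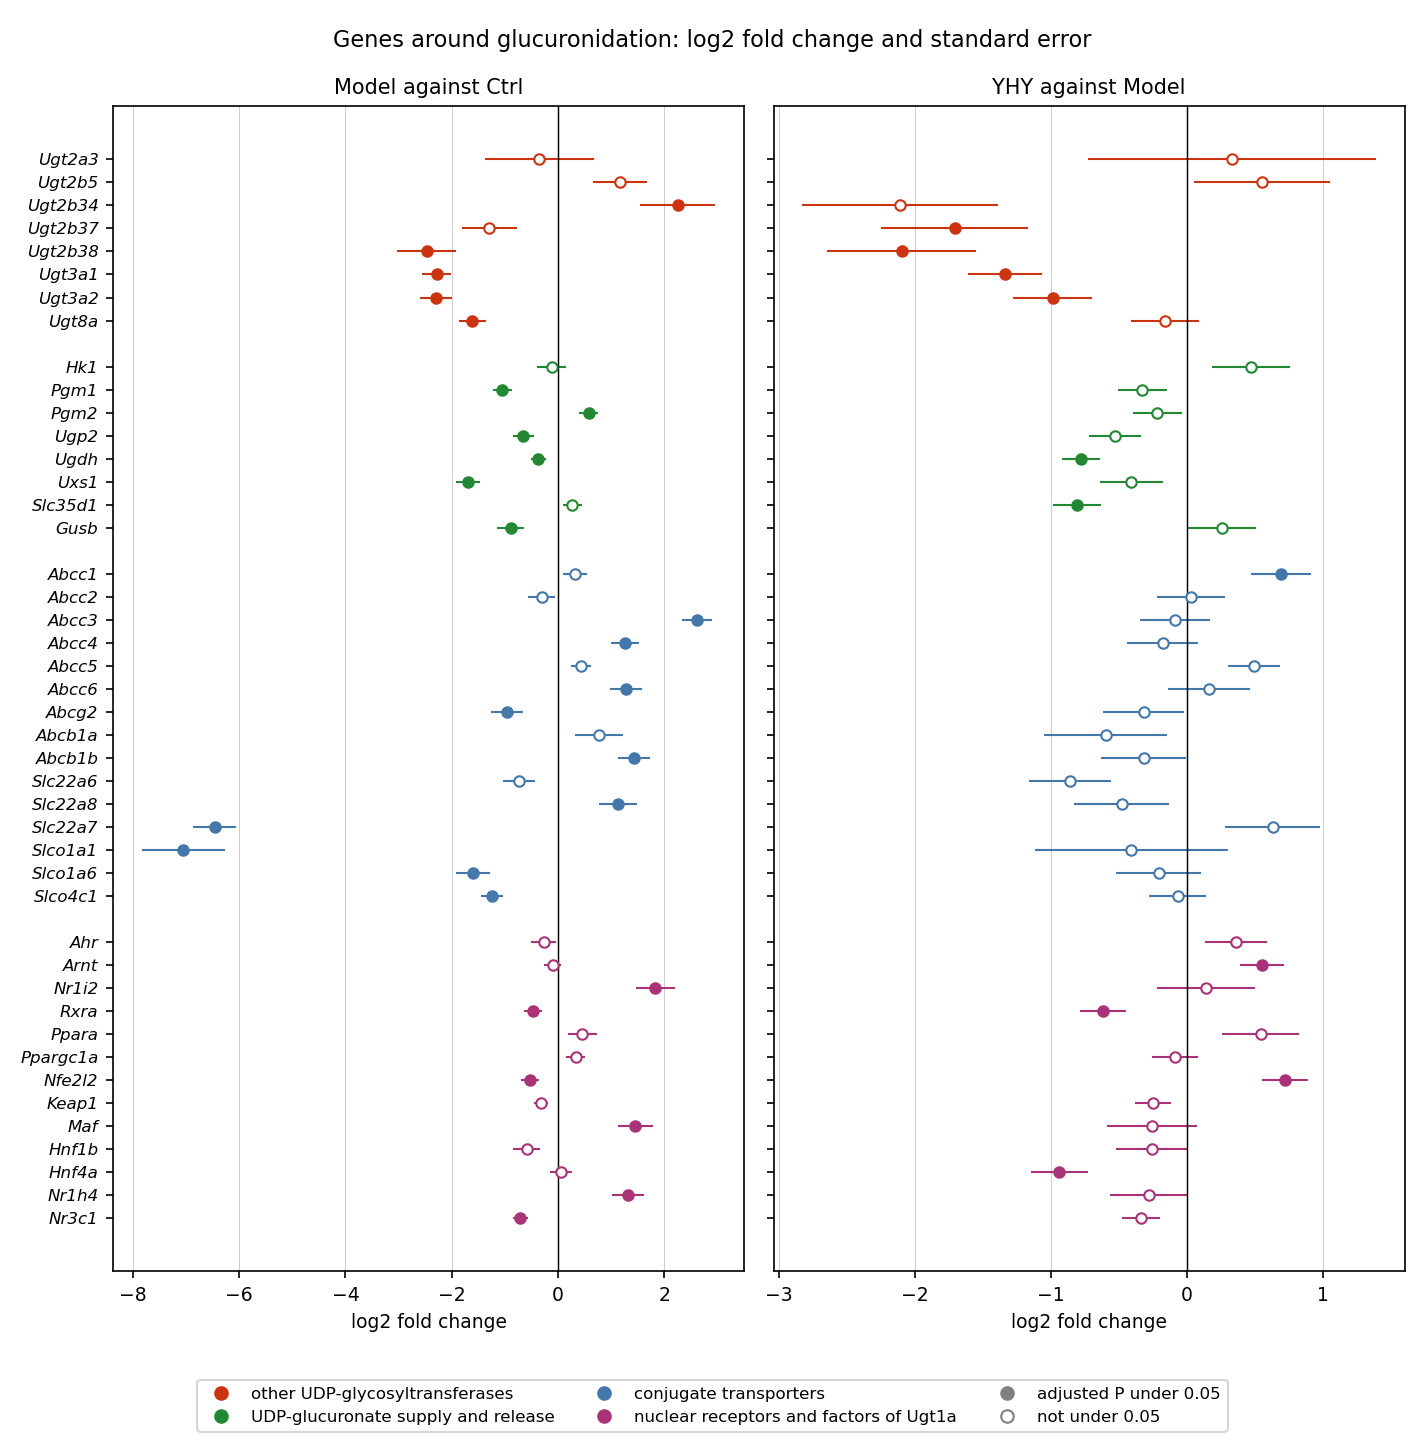
Log2 fold changes with their standard errors are drawn for genes of 4 lists that were tested and are reported, Model against Ctrl on the left and YHY against Model on the right, with filled circles at an adjusted P under 0.05. Slco1a1 at -7.05 and Slc22a7 at -6.46 lie farthest from 0 in Model against Ctrl, and Slc35d1 and Ugdh are the 2 filled supply genes in YHY against Model.

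The routes beside and after glucuronidation were read from further lists. Of 13 sulfotransferase genes, which serve a competing conjugation, 8 were tested, with 2 higher (1 without Ctrl 1 or Model 2 and with library size alone) and 2 lower in Model and a median of 0.08, and 1 higher and 2 lower in YHY against Model with a median of -0.18. Sult1a1, for the enzyme that sulfates phenols, rose by 1.89 in Model (SE 0.2, adjusted P = 1.09e-05). Sult5a1 rose by 1.67 in YHY against Model (SE 0.38, adjusted P = 0.0112), from 2.23 to 7.1 CPM, and kept its call in each of 21 alternatives. Sult1c2 fell by 1.33 in YHY against Model (adjusted P = 0.00348) although YHY 4 lay above the other YHY mice, and Papss2, for the enzyme that makes the sulfate donor, fell by 0.74 (adjusted P = 0.0143). Of 15 transporters of organic anions and conjugates, all tested, 5 were higher (3 with library size alone) and 5 lower in Model, with a median of 0.32. Slco1a1, an uptake carrier for steroid conjugates, fell by 7.05 (SE 0.78, adjusted P = 1.25e-05), from 322 ± 161 to 2.41 ± 0.859 CPM. Slc22a7, an organic anion carrier, fell by 6.46 (SE 0.4, adjusted P = 5.55e-08), and Abcc3, an export pump for glucuronides, rose by 2.61 (SE 0.28, adjusted P = 1.05e-05). Slc22a6, the transporter with the highest mean FPKM, had -0.73 (SE 0.3, adjusted P = 0.0633) and was called lower in 10 of 21 alternatives. With YHY, 1 of the 15 was higher than in Model, namely Abcc1, for an export pump, at 0.69 (SE 0.22, adjusted P = 0.0495), a call lost in 9 of the 12 fits that left out a mouse, and 0 were lower (1 by DESeq2, 1 at an unadjusted P under 0.05, 1 without YHY 2, 2 without YHY 4), with a median of -0.18. Of the 4 genes that break haem down to bilirubin, the substrate of Ugt1a1, 0 were higher in Model, also by DESeq2 and at an unadjusted P under 0.05, and 2 were lower (1 without Model 2 or Model 4, 3 with library size alone), with a median of -0.53. Hmox1, for the inducible form of haem oxygenase, fell by 0.81 (SE 0.26, adjusted P = 0.0207), a call lost without Model 2 at 0.0686 and without Model 4 at 0.0645. Hmox2, for the constant form of haem oxygenase, fell by 1.04 (SE 0.2, adjusted P = 0.000851). Blvra, for biliverdin reductase and the listed gene with the highest mean FPKM, had -0.24 (SE 0.23, adjusted P = 0.424). In YHY against Model 0 of these 4 were called, also by DESeq2 and at an unadjusted P under 0.05.

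Markers of cell types were set beside these values. All 14 markers of the proximal tubule, the segment that takes up and secretes organic anions, were tested, and 1 was higher (0 without Ctrl 3, Ctrl 4 or Model 1 and with library size alone) and 7 lower in Model, with a median of -0.82. Their summed level was 55300, 71600, 57900 and 29500 CPM for Ctrl, 18300, 12600, 16400 and 11600 for Model, and 8020, 14300, 6100 and 16700 for YHY. The Ctrl mice lay above all others, and most of the sum came from Kap, an abundant tubule transcript, which fell by 3.06 in Model (SE 0.41, adjusted P = 5.09e-05). Lrp2, for the uptake receptor megalin, fell by 1.68 (SE 0.29, adjusted P = 0.000399), whereas the phosphate carrier gene Slc34a1 had 0.06 (SE 0.29, adjusted P = 0.893). In YHY against Model 1 marker was higher and 1 lower, with a median of -0.45, and these counts were 0 to 1 and 1 to 6 with a mouse left out. The part of the proximal tubule in the Ugt1a values was not tested. Liver and gut also express Ugt1a genes, so their markers were read as well. Of 7 enterocyte markers, 5 (Fabp2, Alpi, Sis, Cdx1 and Cdx2) had 0 counts in each of the 12 mice. The summed level of the 7 was 116 to 153 CPM in Ctrl, 97.5 to 112 in Model and 55.3 to 113 in YHY. Almost all of it came from Vil1, for villin, which the brush border of the proximal tubule also contains, and Vil1 had -0.37 in Model against Ctrl (SE 0.18, adjusted P = 0.12). Of 9 hepatocyte markers, 8 were in the table and 6 were tested, with 2 higher (1 to 3 with a mouse left out) and 1 lower in Model. Their summed level lay between 187 and 434 CPM in the 12 mice, with Serpina1a the most abundant.

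Markers of other kidney cells were counted in Model against Ctrl as well, where 19.6% of all genes were higher and 18.5% lower. Of 5 markers of the loop of Henle 4 were lower in Model, with a median of -1.12, a count of 2 to 4 with a mouse left out, and a summed level of 1240 to 2530 CPM in Ctrl, 806 to 1260 in Model and 898 to 2300 in YHY. The most abundant, Umod, for uromodulin, fell by 2.86 (SE 0.38, adjusted P = 5.43e-05). Of 5 distal tubule markers 3 were higher, with a median of 0.69 and sums of 419 to 700, 889 to 936 and 536 to 1100 CPM, and of 6 podocyte markers 3 were higher, with a median of 0.66 and sums of 118 to 164, 131 to 304 and 103 to 197 CPM. Of 8 collecting duct markers 2 were lower (1 to 3 with a mouse left out, 1 by DESeq2, 4 with library size alone), of 6 endothelial markers 2 were higher, of 8 leukocyte markers tested 1 was higher and 3 lower, and of 6 markers of fibroblasts and smooth muscle 1 was higher (0 to 1 with a mouse left out). With library size alone 0 endothelial, 0 leukocyte and 0 fibroblast markers were higher. Beside the shares of all genes, counts this small are not a result about these cells. Summed levels in Ctrl, Model and YHY were 629 to 1500, 416 to 625 and 320 to 671 CPM for collecting duct markers. For endothelial markers they were 168 to 221, 222 to 275 and 218 to 329 CPM. In both lists the ranges of Ctrl and Model nearly met, though they did not overlap, as for 40.2% of all genes tested. They overlapped for leukocyte markers (87.4 to 133 and 68.5 to 119 CPM) and for markers of fibroblasts and smooth muscle (133 to 214 and 170 to 238 CPM). Of 6 adipocyte markers 2 were tested, and 0 were called, also by DESeq2 and at an unadjusted P under 0.05, with 1 higher where a gene needed at least 1 count in all. Of 6 adrenal cortex markers 2 were tested and both were higher in Model, namely Hsd3b1, for a steroid dehydrogenase, by 4.22 (SE 0.38, adjusted P = 2.68e-06) and Star, for a cholesterol carrier, by 1.32 (SE 0.27, adjusted P = 0.00128). The sum of the 6 was 2.13 to 3.31 CPM in Ctrl, 12 to 24.6 in Model and 13.8 to 19.4 in YHY, while Cyp11a1, Cyp11b1 and Cyp21a1, which are typical of that tissue, reached at most 0.381, 0.0961 and 0.0775 CPM in any mouse. The part of these cell types in the Ugt1a values was not tested.

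Genes outside the cluster whose pattern over the 12 mice was most like that of Ugt1a2 were sought among 12079 candidates by Pearson's r of log2 CPM, as a description. They were Foxo3, a forkhead factor (r = 0.948), Mgll, for monoacylglycerol lipase (r = 0.945), and S100a13, for a calcium-binding protein (r = 0.935). Their means in Ctrl, Model and YHY were 37.5, 92.3 and 66.6 CPM for Foxo3, 52.9, 106 and 72.8 for Mgll, and 13, 26.1 and 20.7 for S100a13, so each had its highest mean in Model. Ugt1a7c had the highest mean FPKM of the members in Ctrl and in YHY, though not in Model. Most like it were Lrrc42 (r = 0.939), Snrpn, for a small nuclear ribonucleoprotein (r = 0.925), and Dock9, for an exchange factor (r = 0.922). Each of these had its highest mean in Ctrl and its lowest in YHY.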

How the data were processed

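The authors deposited raw counts of reads for 57490 genes in 12 mice, with gene coordinates and gene lengths (gene_length, in bases). Their processing notes name FastQC 0.11.9, Trimmomatic 0.39, HISAT2 2.2.1, SAMtools 1.12, featureCounts 2.0.1 (Subread), DESeq2 1.34.0, R 4.1.2 and GRCm39 (mm39), with no counting options or strand. Mice were grouped by their labels. Genes that passed filterByExpr (17431) were tested with edgeR 4.0.16 (R 4.3.3) by the quasi-likelihood test after TMM scaling, in 1 two-sided fit of 3 groups, with Benjamini-Hochberg adjustment and a threshold of 0.05. Fitted fold changes of low genes depend on the prior count. The SE is the absolute log2 fold change divided by the square root of the test's F value, so for low genes it is approximate. Log2 CPM used a prior count of 2.

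The Ugt1a genes and the gene lists were chosen with earlier results of these data known. Genes named with values are the Ugt1a genes and up to 4 called genes of each list with the largest log2 fold change. Also named are the gene of each list with the highest mean FPKM, marker genes, and genes within and next to the cluster. The 3 genes most like Ugt1a2 and Ugt1a7c, among those with a mean count of at least 50, were named too. Some genes under these rules are not reported here.

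Replicates differed by 17.3 to 139 in chi-square per degree of freedom over 18 pairs, so no library was counted as a copy. Floors are 3 counts and cover counting error only. The alternatives were DESeq2 1.42.0, library size alone, TMM without mitochondrial transcripts, no filter beyond 1 count, at least 10 counts in every mouse, the 8 mice compared, the 9 mice behind the authors' group means, a block for the replicate number, leaving out each mouse, the limits of the study's methods (fold change over 1.2 and unadjusted P under 0.05), CPM in place of FPKM, and own bases as the length. The authors' 2 comparison tables, which hold fold changes, p-values and 12 columns of values per mouse, and their 2 KEGG tables were not used for any value. The 9 mice were known from an earlier match of the group means in those tables to the counts. The steps were tested on simulated data. Sequences were read in Python 3.11.15 with pandas 2.3.3 and numpy 2.4.6, and figures drawn with matplotlib 3.10.9.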

Additional observations from a re-analysis of the deposited data

Results flagged for a closer look

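In each group of 4 mice, the highest and the lowest CPM were set against the rest for 71 named genes, and 11 of 205 groups held a mouse far from the other 3. For normally distributed values chance gives about 1 such group in 20, close to the share found here. Whether the CPM values of these genes follow that distribution was not tested. Among the Ugt1a genes, Ugt1a10 in YHY 1 was at 0.305 CPM while the other YHY mice were at 1.43 to 1.56. Ugt1a6a in YHY 4 was at 10.2 CPM against 0.611 to 1.97, and Ugt1a5 in YHY 4 was at 0.31 CPM against 0 in the others, which is 8 counts.

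YHY 4 was also high for Sult1c2 at 30.3 CPM against 16.1 to 17.7, and for Gsta2, a glutathione transferase gene, at 110 CPM against 31.1 to 40.7. YHY 1 was high for Gsta1, another glutathione transferase gene, at 7.75 CPM against 1.04 to 2.1, and for Akr1b3, the aldose reductase gene, at 430 CPM against 14.8 to 65.7. YHY 2 was high for Lrrc42 at 7.91 CPM against 4.88 to 5.35. Model 1 was high for Gsta2 at 60 CPM against 27.6 to 32.2, and Model 4 for Hsd3b1, a steroid dehydrogenase gene, at 20.7 CPM against 8.43 to 10.3. In Ctrl, Ctrl 2 was high for Nr1h4 at 133 CPM against 48.2 to 58. The cause of these values was not tested.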

How the results depend on the processing

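No called value changed sign under an alternative. For Model against Ctrl, the log2 fold change over the alternatives ran from 4.89 to 6.62 for Ugt1a2, 2.17 to 2.98 for Ugt1a10, 1.02 to 1.71 for Ugt1a6a and -1.88 to -1.21 for Ugt1a7c, and with each mouse left out from 4.91 to 6.62 for Ugt1a2. For YHY against Model, Ugt1a2, given with no test, was between -2.4 and -1.84 over the alternatives. For YHY against Ctrl, Ugt1a6a was at 1.54 in the 9 mice of the authors' means, which leave out YHY 4, and between 1.26 and 3.13 with each mouse left out, and Ugt1a2 between 2.8 and 4.51.

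In YHY against Model the number of Ugt1a genes called, with Ugt1a2 not counted (1), was 0 with at least 10 counts in every mouse, where Ugt1a10 and Ugt1a2 were filtered out and gave no value, and 1 with each mouse left out. In YHY against Ctrl (2) it was 1 in the 9 mice and 1 to 2 with each mouse left out. Of all genes, 2311 were called in YHY against Model, 1177 with library size alone, 1385 in the 8 mice compared, 4988 by the limits of the study's methods, and 1146 (without Model 3) to 2723 with each mouse left out. By CPM in place of FPKM, Ugt1a7c took place 1 in Model, Ugt1a10 place 2 and Ugt1a2 place 3. Own bases, an alternative chosen after seeing the data, left each place as it was. In YHY, with each mouse left out, Ugt1a6a (place 2) ran from 1 to 4, Ugt1a7c from 1 to 2, Ugt1a2 from 2 to 3 and Ugt1a10 from 3 to 4. The cause was not tested.

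With the replicate number as a block, 6289, 1920 and 8424 genes were called in Model against Ctrl, YHY against Model and YHY against Ctrl, and the calls of the Ugt1a genes were the same. Residual correlations ran from -0.173 to 0.125 in the 12 pairs of mice of different groups with the same number. In the 36 other pairs they ran from -0.254 to 0.209. No pairing by number was seen in these ranges, though they cannot show that there was none. Scaling by library size alone moved the median log2 fold change of all genes in Model against Ctrl from 0.04 to -0.39, and 21.4% of its calls were higher in Model against 51.5%. In YHY against Ctrl it moved that median from 0.1 to -0.33, and 28.4% of the calls were higher in YHY against 51.9%. Of 2346 values of other named genes under an alternative, 103 lost a call and 71 gained a call, and 193 of 1974 further counts of called genes, mostly of the lists, moved by over 1.5 times. Ugt1a1, Ugt1a5, Ugt1a6b, Ugt1a8 and Ugt1a9 had too few counts to pass the filter at this depth, so no difference was tested for them.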

Other observations

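The span of the cluster held 12 other genes of the count table, most of them unprocessed pseudogenes, of which 6 had a count in any mouse. Dnajb3, a chaperone gene that lies before the first exon of Ugt1a1, had a log2 fold change of 1.45 in Model against Ctrl (adjusted P = 0.131). Gm15368, an unprocessed pseudogene, had 0, 2, 0 and 0 counts in Ctrl, 0, 0, 4 and 2 in Model and 7, 12, 4 and 13 in YHY, and did not pass the filter. Of the nearest genes with a mean count of at least 50 on either side, Usp40, for a ubiquitin protease, had 0.46 in Model against Ctrl (adjusted P = 0.0776), and Mroh2a had 0.96 (adjusted P = 0.0386) and, in YHY against Model, -0.14 (adjusted P = 0.839).

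Of 14 targets of the fatty acid receptor PPAR alpha, all tested, 2 were higher and 6 lower in Model against Ctrl, with a median log2 fold change of -0.49, and Acadm, for a dehydrogenase of fatty acid breakdown, fell by 1.7 (adjusted P = 2.85e-06). Of all genes tested, 19.6% were higher and 18.5% lower in Model against Ctrl, with a median of 0.04. For YHY against Model these shares were 5.63% and 7.62%, with a median of 0.02. In YHY against Model 3 of the 14 targets were higher, with a median of 0.6, and 0 were lower, also by DESeq2 and at an unadjusted P under 0.05. The count of 3 ran from 1 to 5 with a mouse left out, and the calls of Plin2 and Angptl4 were lost in 14 and 9 of 21 alternatives. Pdk4, for a kinase that restrains glucose oxidation, rose by 2.58 (adjusted P = 0.000884), a call that held in all 21.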
